A study of Mus musculus with 4 samples.

Results

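The genes described here encode the tumour necrosis factor (TNF) ligand, the adaptors and kinases that work under death receptors, the caspases and apoptosome, the inhibitors of apoptosis, the death-associated kinases and the NF-kB subunits. They were chosen by gene symbol alone, and 31 of the 14884 genes with a named probe set matched. The symbol rule used no expression value, but the family was chosen with earlier results of these data known. The arrays compared human SW620 colon carcinoma cells exposed to 50 nM F5446 for 2 days with untreated SW620 cells, 2 arrays in each group. F5446 is described as a selective small-molecule inhibitor of SUV39H1, an enzyme that methylates lysine 9 of histone H3, and both groups grew in RPMI medium with serum. SW620 is a line from a lymph node metastasis of a colon cancer, so the values describe 1 line at 1 dose and 1 time, and the untreated cells are not said to have received a solvent. The sample records name mouse as the organism, while the protocol and the platform annotation are human. The series speaks of biological replicates but does not say if each had its own culture; the p-values thus reflect only how far these arrays differ, which may be technical.

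When a TNF family ligand binds its receptor, adaptors such as TRADD and the TRAF proteins gather kinases and ubiquitin ligases on the receptor tail, and the resulting ubiquitin scaffold releases NF-kB dimers, which switch on survival and inflammatory genes. The same receptors can instead assemble FADD with initiator caspases, which CFLAR (c-FLIP) blocks, or engage RIPK3 and MLKL, which rupture the plasma membrane in necroptosis. Death signals from mitochondria run through APAF1, which builds the caspase-activating apoptosome, and are restrained by XIAP and related proteins. In the intestinal epithelium these routes are known for setting the balance between cell shedding, inflammation and repair.

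Much of the family has no named probe set here and was not analysed. No gene whose symbol begins with TNFRSF, TNFSF or TNFAIP was named, and neither were FAS, FASLG, RIPK1, TRAF2, TRAF6, TRAF7, BIRC3, DIABLO or the inhibitors NFKBIA, NFKBIB, NFKBIE and NFKBIZ. CASP12 was the single named caspase. The symbols BIRC4 and RIPK5, which the rule also allows, were likewise absent. The results below therefore speak for 1 ligand, 12 adaptors and receptor-proximal kinases, 3 caspase and apoptosome genes, 5 inhibitors of apoptosis, 5 death-associated kinases and 5 NF-kB subunits, and for no receptor of the TNFRSF or FAS symbols.

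All values are log2 signals as deposited, given for F5446 replicates 1 and 2 and then for Ctrl (untreated) replicates 1 and 2. The arrays of a group correlated across named genes at r = 0.9949 for F5446 and 0.9936 for Ctrl, and pairs of 1 F5446 and 1 Ctrl array at 0.9431 to 0.9446. Genes are not independent replicates, and these correlations only describe the arrays. SUV39H1 itself had log2 signals of 7.47 and 7.36 in F5446 cells, against 9.12 and 9.17 in Ctrl cells, and its relative SUV39H2 had 6.76 and 6.69, against 7.79 and 7.83. Of 14 epithelial markers 11 had a named probe set, and EPCAM, KRT8, KRT18 and KRT19 lay above 4.42, the median of all probe sets, on every array. Of these 11 genes 5 fell (VIL1 14.7-fold, KRT18 2.16-fold, EPCAM 1.69-fold, CDX2 and KRT8) and 2 rose (CEACAM5 3.80-fold and KRT19), and the log2 of their summed signal was 12.24 to 12.26 in F5446 cells and 13.04 to 13.05 in Ctrl cells. Named probe sets covered 8 of 20 leukocyte markers, without the pan-leukocyte gene PTPRC, and 5 of 13 fibroblast and endothelial markers. In the leukocyte list 1 gene rose (CD68, 12.9-fold) and 3 fell (PRF1, LYZ and CD4). The log2 of its summed signal was 11.61 to 11.63 in F5446 cells and 10.18 to 10.19 in Ctrl cells. In the fibroblast and endothelial list LUM fell, and the log2 of the summed signal was 5.99 to 6.07 in F5446 cells and 7.44 to 7.47 in Ctrl cells. No marker was listed at 0. The part of these markers in the results below was not tested.

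After F5446 the inhibitor-of-apoptosis gene BIRC5 (survivin) fell 14.6-fold, the pore-forming necroptosis effector MLKL 2.47-fold and the adaptor TRAF5 2.40-fold. The death-associated kinases STK17A and STK17B rose 3.19-fold and 2.32-fold and the NF-kB subunit NFKB2 rose 2.07-fold. In RNA of whole cultures, fewer cells that express a gene and less of its RNA per cell cannot be told apart. In all, 10 of the 31 members were higher and 7 were lower at an adjusted p of at most 0.05 in limma's test across all named genes, and 14 did not pass. The 17 calls are 54.8% of the members, where 40.9% of all named genes passed, 18.2% higher and 22.7% lower. Members under the median probe set signal numbered 3 of 31, against 31% of all named genes. Among genes at or above that limit, 17 of 28 members passed and so did 55.7% of all genes, so the members were called about as often as other genes of measurable signal. The members' median log2 fold change was -0.02 and that of all named genes -0.05. With 2-fold as the minimum, 3 members rose and 3 fell, beside 5.4% and 7.32% of all named genes (12.7% in either direction). Members that passed with separated arrays and at least 1.5-fold numbered 13 of 31, 7 upward and 6 downward, where 26.4% of all named genes did so. At or above the same signal limit they were 13 of 28 members, beside 3654 of 10263 named genes.

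**Figure D1:**
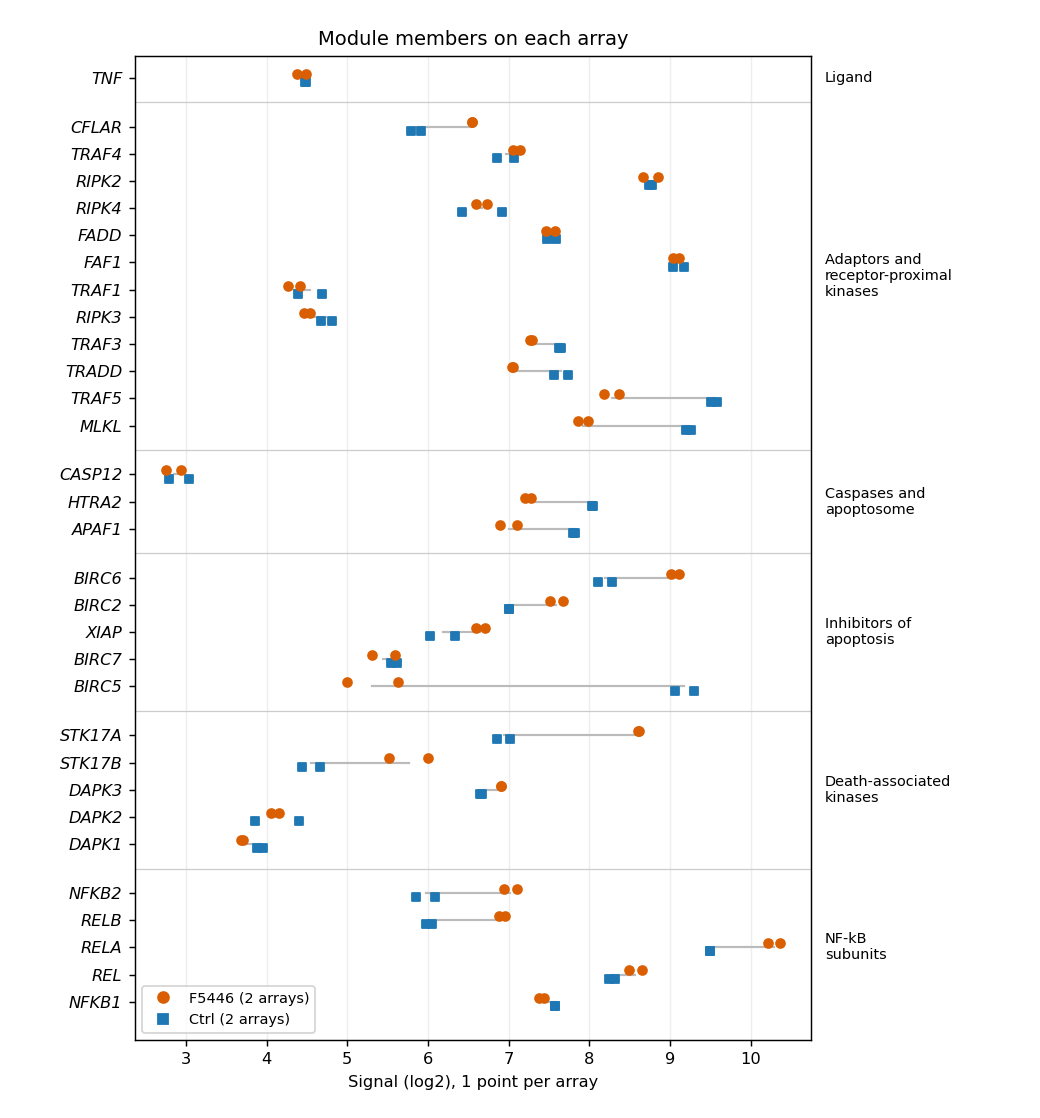
Log2 signal of the 31 members on each array, grouped by role, with F5446 arrays as orange circles and Ctrl arrays as blue squares (2 each) and a grey line joining the group means. BIRC5 shows the widest separation, 4.99 and 5.63 in F5446 cells against 9.07 and 9.30 in Ctrl cells, while FADD, FAF1 and RIPK2 overlap.

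The arrays of the groups did not overlap for 21 of the 31 members, 11 with F5446 above and 10 with F5446 below, where 66.2% of all named genes did not overlap (28.4% with F5446 above and 37.7% below). All 17 members that passed were among these 21. RIPK3, DAPK1, DAPK3 and NFKB1 also had separated arrays and did not pass. Between the replicate arrays of a group the members differed little: the median gap was 0.11 in F5446 cells and 0.10 in Ctrl cells on the log2 scale. The widest gap in F5446 cells was that of BIRC5, 0.64, and the widest in Ctrl cells that of DAPK2, 0.54.

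TNF was the single ligand with a named probe set, and its signal stayed near the median of all probe sets. It had 4.38 and 4.49 in F5446 cells, against 4.47 and 4.48 in Ctrl cells (log2 fold change -0.04 ± 0.16, SE, adjusted p = 0.87). The groups overlapped. Of its 8 probe sets 7 held identical values on every array, so they carry a single measurement. The remaining, dimmer one had a log2 fold change of 0.30 and did not pass either (adjusted p = 0.32 over all probe sets).

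Among the adaptors and receptor-proximal kinases 4 of 12 fell, 1 rose and 7 did not pass. All 12 lay at or above the median probe set signal, where 30.5% of all named genes were lower and 25.1% higher. MLKL, which RIPK3 phosphorylates to open the plasma membrane, had 7.99 and 7.86 in F5446 cells, against 9.19 and 9.26 in Ctrl cells. Both treated arrays lay more than 1 log2 unit under both untreated ones, and the log2 fold change was -1.30 ± 0.08 (SE, adjusted p = 1.57e-06). RIPK3, the kinase upstream of MLKL, lay just above the probe set median, with 4.54 and 4.46 in F5446 cells and 4.81 and 4.67 in Ctrl cells. Its log2 fold change of -0.24 ± 0.16 (SE) did not pass (adjusted p = 0.28). The table has no detection calls, and a signal this low can hide part of a change.

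TRAF5, an adaptor of several TNF receptors that feeds NF-kB and JNK signalling, had 8.19 and 8.37 in F5446 cells, against 9.50 and 9.59 in Ctrl cells. The groups were far apart (log2 fold change -1.26 ± 0.08, SE, adjusted p = 2.40e-06). TRADD, the platform that docks on the TNF receptor and recruits RIPK1 and TRAF2, had 7.06 and 7.04 in F5446 cells and 7.74 and 7.56 in Ctrl cells. It fell 1.52-fold (log2 fold change -0.60 ± 0.10, SE, adjusted p = 0.00086). TRAF3, which holds down the non-canonical NF-kB pathway by having the kinase MAP3K14 degraded, averaged 7.28 ± 0.017 in F5446 cells and 7.64 ± 0.014 in Ctrl cells (SD, n = 2 each). It fell 1.28-fold (adjusted p = 0.0090 in limma), and that call was lost when arrays were centred on their medians (adjusted p = 0.067) and without either F5446 array (0.072 without replicate 1 and 0.057 without replicate 2).

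CFLAR was the one member of this role that rose. It encodes c-FLIP, the caspase-like protein that occupies FADD and keeps initiator caspases from firing. It had 6.55 and 6.55 in F5446 cells, against 5.92 and 5.79 in Ctrl cells, without overlap (1.62-fold, log2 fold change 0.69 ± 0.12, SE, adjusted p = 0.0011). FADD, its partner, had 7.57 and 7.46 in F5446 cells and 7.48 and 7.59 in Ctrl cells, with the arrays interleaved (log2 fold change -0.02 ± 0.09, SE, adjusted p = 0.93). Its dimmer second probe set had a log2 fold change of 0.20 and did not pass (adjusted p = 0.44 over all probe sets).

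FAF1, a FAS-associated protein, had 9.11 and 9.03 in F5446 cells and 9.03 and 9.18 in Ctrl cells (log2 fold change -0.03 ± 0.07, SE, adjusted p = 0.80). RIPK2, the kinase of the NOD receptors, had 8.66 and 8.85 in F5446 cells and 8.78 and 8.75 in Ctrl cells (log2 fold change -0.01 ± 0.08, SE, adjusted p = 0.97). Both lay above the probe set median on all arrays, and their groups overlapped. The log2 fold changes of RIPK4, TRAF1 and TRAF4 were -0.01, -0.20 and 0.13, and their adjusted p ran from 0.39 to 0.97. Of the 4 TRAF genes named, TRAF3 and TRAF5 thus fell and TRAF1 and TRAF4 did not pass.

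**Figure D2:**
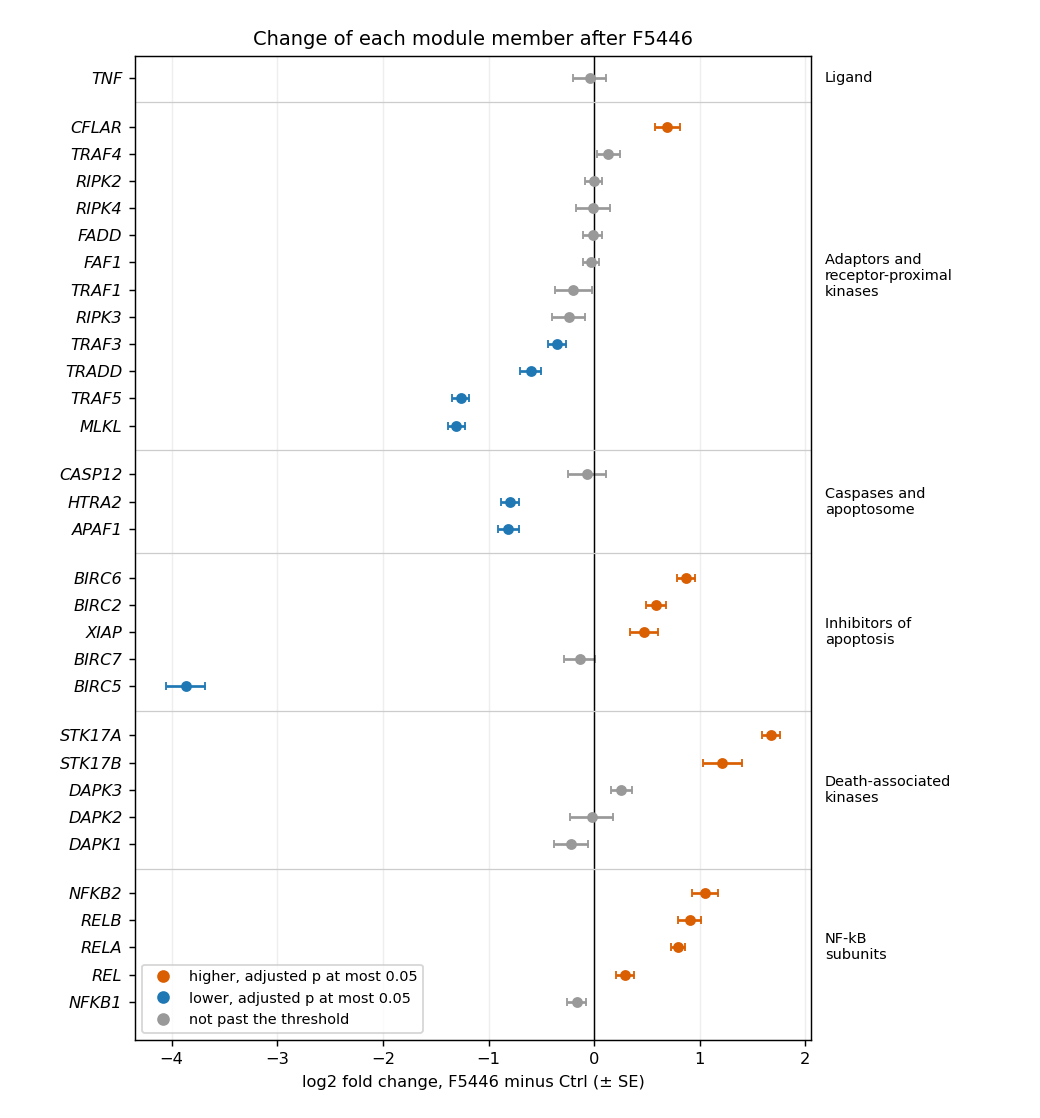
Log2 fold change of each member, F5446 minus Ctrl, with its SE from limma's fit; orange marks members that were higher, blue lower and grey not past an adjusted p of 0.05. Opposite signs occur within the adaptors and within the inhibitors of apoptosis, where BIRC6, BIRC2 and XIAP lie right of 0 and BIRC5 lies at -3.87.

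Of the 3 caspase and apoptosome genes, APAF1 and HTRA2 fell and CASP12 did not pass. The share lower was 22.7% of all named genes and 30.5% of those at or above the median probe set signal. APAF1, the scaffold that cytochrome c opens to recruit initiator caspases, had 6.89 and 7.11 in F5446 cells, against 7.83 and 7.80 in Ctrl cells. Both treated arrays lay below both untreated ones (1.76-fold, log2 fold change -0.81 ± 0.10, SE, adjusted p = 0.00017). HTRA2, a mitochondrial protease that neutralises XIAP when it leaks into the cytosol, had 7.21 and 7.28 in F5446 cells and 8.04 and 8.04 in Ctrl cells. It fell 1.74-fold (log2 fold change -0.80 ± 0.08, SE, adjusted p = 5.85e-05). CASP12, an inflammatory caspase that is truncated in most people, lay far under the probe set median, with 2.94 and 2.75 in F5446 cells and 3.04 and 2.79 in Ctrl cells. Its groups overlapped (adjusted p = 0.82), and at that signal a transcript may be below what the probe set can measure.

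The inhibitors of apoptosis split: 3 of 5 rose, 1 fell and 1 did not pass. Of all named genes at or above the median probe set signal, as these 5 are, 25.1% were higher and 30.5% lower. BIRC5 encodes survivin, which also serves mitosis as a subunit of the chromosomal passenger complex. It had 5.63 and 4.99 in F5446 cells, against 9.07 and 9.30 in Ctrl cells. The gap between the groups was several times the gap between the treated arrays, and the log2 fold change was -3.87 ± 0.19 (SE, adjusted p = 4.52e-07). In the size of its change BIRC5 ranked at the 99.87th percentile of all named genes, and with either F5446 or either Ctrl array left out its log2 fold change ran from -4.19 to -3.55.

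BIRC6, a giant ubiquitin-conjugating enzyme that binds caspases and HTRA2, had 9.11 and 9.02 in F5446 cells, against 8.29 and 8.11 in Ctrl cells. It rose 1.83-fold without overlap (log2 fold change 0.87 ± 0.08, SE, adjusted p = 3.09e-05). BIRC2, the ubiquitin ligase c-IAP that marks RIPK1 on the TNF receptor, had 7.51 and 7.67 in F5446 cells and 7.01 and 7.01 in Ctrl cells (log2 fold change 0.58 ± 0.10, SE, adjusted p = 0.00099). XIAP, the direct caspase inhibitor, had 6.60 and 6.71 in F5446 cells and 6.02 and 6.34 in Ctrl cells (log2 fold change 0.47 ± 0.13, SE, adjusted p = 0.020). The treated arrays of all 3 genes lay above the untreated ones. The call for XIAP was lost with every probe set tested (adjusted p = 0.082) and without F5446 replicate 1 (0.090), F5446 replicate 2 (0.16) or Ctrl replicate 1 (0.12). BIRC7 (livin), a paralogue known from melanoma, had 5.31 and 5.59 in F5446 cells and 5.55 and 5.62 in Ctrl cells, and its groups overlapped (log2 fold change -0.14 ± 0.15, SE, adjusted p = 0.54).

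Of the 5 death-associated kinases the pair STK17A and STK17B rose and the DAPK genes did not pass. The share higher was 18.2% of all named genes and 25.1% of those at or above the median probe set signal. STK17A and STK17B encode DRAK kinases, serine/threonine kinases related in their catalytic domain to DAPK and named for inducing apoptosis when overexpressed. STK17A had 8.61 and 8.62 in F5446 cells, against 6.86 and 7.02 in Ctrl cells. This was the widest rise among the members (log2 fold change 1.67 ± 0.09, SE, adjusted p = 8.32e-07), at the 95.59th percentile of all named genes by size of change. STK17B had 5.52 and 6.01 in F5446 cells and 4.44 and 4.66 in Ctrl cells. Its treated arrays differed more from each other than those of STK17A but both lay above the untreated ones (log2 fold change 1.21 ± 0.19, SE, adjusted p = 0.00066).

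DAPK3, which phosphorylates myosin light chain and promotes membrane blebbing, had 6.91 and 6.91 in F5446 cells and 6.67 and 6.64 in Ctrl cells. The arrays were separated, yet the log2 fold change of 0.26 ± 0.10 (SE) missed the threshold (adjusted p = 0.071); it passed once arrays were centred on their medians (adjusted p = 0.013). DAPK1 and DAPK2, calcium/calmodulin-dependent relatives, both lay under the median of all probe sets on every array. DAPK2 had 4.06 and 4.16 in F5446 cells and 4.40 and 3.86 in Ctrl cells, so its untreated arrays spanned the treated ones (adjusted p = 0.95). The log2 fold change of DAPK1 was -0.22 ± 0.16 (SE, adjusted p = 0.35).

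Of the 5 NF-kB subunit genes 4 rose and 1 did not pass, where 18.2% of all named genes were higher. Of the named genes at or above the median probe set signal, as these 5 are, 25.1% were higher. NFKB2 encodes the precursor that the non-canonical pathway trims into an active subunit. It had 7.10 and 6.94 in F5446 cells, against 6.09 and 5.86 in Ctrl cells (log2 fold change 1.05 ± 0.13, SE, adjusted p = 0.00013). RELB, the partner of processed NFKB2, had 6.95 and 6.88 in F5446 cells and 5.97 and 6.05 in Ctrl cells (1.87-fold, log2 fold change 0.91 ± 0.11, SE, adjusted p = 0.00013). In both genes the treated arrays stood well clear of the untreated ones.

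RELA, the main transactivating subunit of the canonical pathway, had 10.37 and 10.21 in F5446 cells, against 9.50 and 9.50 in Ctrl cells. It rose 1.73-fold (log2 fold change 0.79 ± 0.07, SE, adjusted p = 1.36e-05). REL, best known from lymphocytes, had 8.66 and 8.49 in F5446 cells and 8.24 and 8.32 in Ctrl cells, a change of 1.22-fold (adjusted p = 0.021 in limma). The call for REL was lost without an intensity trend (adjusted p = 0.098), with every probe set tested (0.093) and without F5446 replicate 1 (0.20), Ctrl replicate 1 (0.12) or Ctrl replicate 2 (0.055). NFKB1, the precursor of the usual partner of RELA, had 7.37 and 7.45 in F5446 cells and 7.57 and 7.58 in Ctrl cells. It lay slightly lower in F5446 cells without passing (log2 fold change -0.17 ± 0.09, SE, adjusted p = 0.18).

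**Figure D3:**
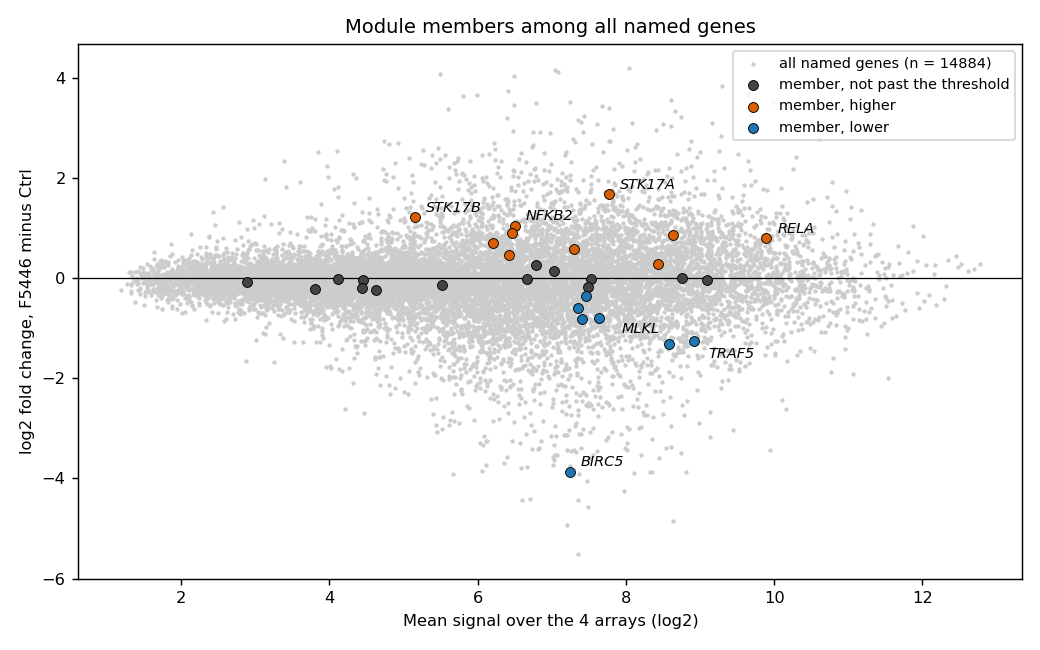
Log2 fold change, F5446 minus Ctrl, against the mean log2 signal over the 4 arrays for all 14884 named genes (grey) and the 31 members (orange higher, blue lower, dark grey not past the threshold). Most members lie inside the cloud of other genes, and BIRC5 lies near its lower edge at -3.87.

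Scaling moved these values together. When the median of the named genes was subtracted from each array, every log2 fold change was 0.13 higher, and the split over all named genes became 3420 higher and 2735 lower, against 2714 and 3372 as deposited. Under that scaling 11 members were higher and 6 lower, and the members' median stood 0.02 above that of all named genes, as it did before. No member that passed changed direction under it or under quantile normalization.

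Lists of related genes set the members in their pathway: signalling partners, NF-kB target genes and execution and inflammasome partners. Of the genes with a named probe set, CYLD is on all of them. TNIP1 and TNIP3 are both signalling partners and NF-kB targets, and NOD2 is both a target and an execution and inflammasome partner. The lists were drawn up with earlier results of these data known, so their shares are a description and not independent support. They were read by their counts and medians beside those of all named genes, and no list was tested as a set. Of 61 signalling partners 41 had a named probe set. Among these, 17 (41.5%) rose and 8 (19.5%) fell, beside 18.2% and 22.7% of all named genes. Their median log2 fold change was 0.11 beside -0.05. Only 4.88% of them lay under the median probe set signal, against 31% of all named genes. Of all named genes at or above that signal, 25.1% rose and 30.5% fell. RBCK1, a subunit of the linear ubiquitin ligase complex (LUBAC) that builds the NF-kB scaffold on the TNF receptor, had 10.48 and 10.34 in F5446 cells, against 8.82 and 8.66 in Ctrl cells (3.19-fold, adjusted p = 3.55e-07 in limma). CYLD, the deubiquitinase that takes such chains apart, had 7.87 and 7.88 in F5446 cells and 6.63 and 6.29 in Ctrl cells (2.66-fold, adjusted p = 1.57e-05). A builder and a remover of the same scaffold were thus both higher. The other LUBAC subunits were looked up after these values were seen: the catalytic RNF31 rose 1.67-fold (adjusted p = 0.00055), and SHARPIN did not pass (log2 fold change -0.08 ± 0.11, SE, adjusted p = 0.65).

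The widest falls among the partners were MALT1, a paracaspase of lymphocyte receptor signalling (1.71-fold lower, adjusted p = 9.93e-05), EDARADD, the adaptor of the ectodysplasin receptor (1.61-fold lower, adjusted p = 0.0058), and TRAF3IP1, a TRAF3-binding protein of the cilium (1.56-fold lower, adjusted p = 0.0012). All 3 had both treated arrays below both untreated ones.

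The same list holds TNF receptor family members whose symbols fall outside the rule, and with no TNFRSF gene named they are the receptors measured. EDA2R, a receptor of ectodysplasin, had 6.25 and 6.16 in F5446 cells, against 4.41 and 4.68 in Ctrl cells (3.16-fold, adjusted p = 2.05e-05). The others are given in full after their values were seen. EDAR, the second ectodysplasin receptor, had 7.36 and 7.36 in F5446 cells and 6.55 and 6.58 in Ctrl cells (1.74-fold, adjusted p = 0.00013). NGFR, the low-affinity neurotrophin receptor, had 7.64 and 7.35 in F5446 cells and 6.94 and 6.67 in Ctrl cells (1.61-fold, adjusted p = 0.0024). All 3 receptors had separated arrays.

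RELT, an orphan receptor of the family, rose 1.56-fold by its brighter probe set (adjusted p = 0.0015), while its dimmer probe set had a log2 fold change of -0.13, and the mean of both did not pass (adjusted p = 0.13). The call for NGFR was lost without F5446 replicate 1 (adjusted p = 0.053). CD27, a lymphocyte receptor, did not pass (log2 fold change 0.11 ± 0.15, SE, adjusted p = 0.65). The ligand genes EDA and CD70 had log2 fold changes of -0.04 and 0.02 and did not pass (adjusted p = 0.88 and 0.94). Among these 7 receptor and ligand genes, set together after their values were seen, 4 receptors passed upward and no ligand passed. Beside them, 18.2% of all named genes were higher, and 25.1% of those at or above the median probe set signal.

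NF-kB target genes rose in 16 cases and fell in 2. Of 45 listed targets 31 had a named probe set, and the calls were 51.6% of these upward and 6.45% downward, beside 18.2% and 22.7% of all named genes; the median log2 fold change was 0.48. IL11, a cytokine of the IL6 family, had 7.62 and 7.47 in F5446 cells, against 5.38 and 5.68 in Ctrl cells (4.04-fold, adjusted p = 2.80e-06). The neutrophil chemokine gene CXCL3 rose 3.78-fold (adjusted p = 3.60e-05) and the transcription factor gene KLF6 3.47-fold (adjusted p = 3.89e-07). Many genes on this list also answer to other pathways, KLF6 and MYC among them, so the list is not a reading of NF-kB activity.

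The 2 targets that fell were CD83, with 5.73 and 5.84 in F5446 cells against 6.14 and 6.38 in Ctrl cells (adjusted p = 0.018), and the adhesion gene ICAM1, with 4.69 and 4.86 against 5.17 and 5.28 (adjusted p = 0.041). Both calls were lost when arrays were centred on their medians (adjusted p = 0.064 for CD83 and 0.12 for ICAM1), where 19 targets rose and 0 fell. The call for ICAM1 was also lost without any 1 of the 4 arrays (adjusted p = 0.082 to 0.22), and that for CD83 without F5446 replicate 1 (0.14), F5446 replicate 2 (0.072) or Ctrl replicate 2 (0.12).

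Among the execution and inflammasome partners 10 genes fell and 4 rose. Of 46 listed genes 25 had a named probe set, so 40% fell and 16% rose, beside 22.7% and 18.2% of all named genes. The median log2 fold change was -0.16. Under the median probe set signal lay 20% of the 25, against 31% of all named genes. Of all named genes at or above that signal, 30.5% fell and 25.1% rose. Once arrays were centred on their medians 8 fell and 7 rose, beside 2735 lower and 3420 higher over all named genes. Without F5446 replicate 2 or without Ctrl replicate 1 the number that fell was 6. PARP1, the DNA-break sensor that executioner caspases cleave, had 7.45 and 7.49 in F5446 cells, against 9.42 and 9.42 in Ctrl cells (3.87-fold lower, adjusted p = 1.08e-07). CASP8AP2, which binds an initiator caspase and also takes part in histone mRNA processing, had 7.05 and 7.21 in F5446 cells and 8.32 and 8.34 in Ctrl cells (2.30-fold lower, adjusted p = 6.42e-06). FAIM, an inhibitor of FAS-driven apoptosis, was 1.98-fold lower (adjusted p = 0.00029).

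Besides CYLD, the widest rises on that list were GSDMB, a pore-forming gasdermin of epithelial cells, and PEA15, a death effector domain protein that competes at FADD. GSDMB had 6.92 and 6.36 in F5446 cells, against 5.49 and 5.39 in Ctrl cells (2.30-fold, adjusted p = 0.00051). PEA15 had 10.39 and 10.46 in F5446 cells and 9.46 and 9.44 in Ctrl cells (1.96-fold, adjusted p = 1.54e-06). In both genes the groups did not overlap. The other named gasdermins were set beside GSDMB after its value was seen. GSDMD and GSDMA were lower (log2 fold change -0.84 and -0.59, adjusted p = 0.0050 and 0.0093 in limma). GSDMC did not pass (adjusted p = 0.22).

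**Figure D4:**
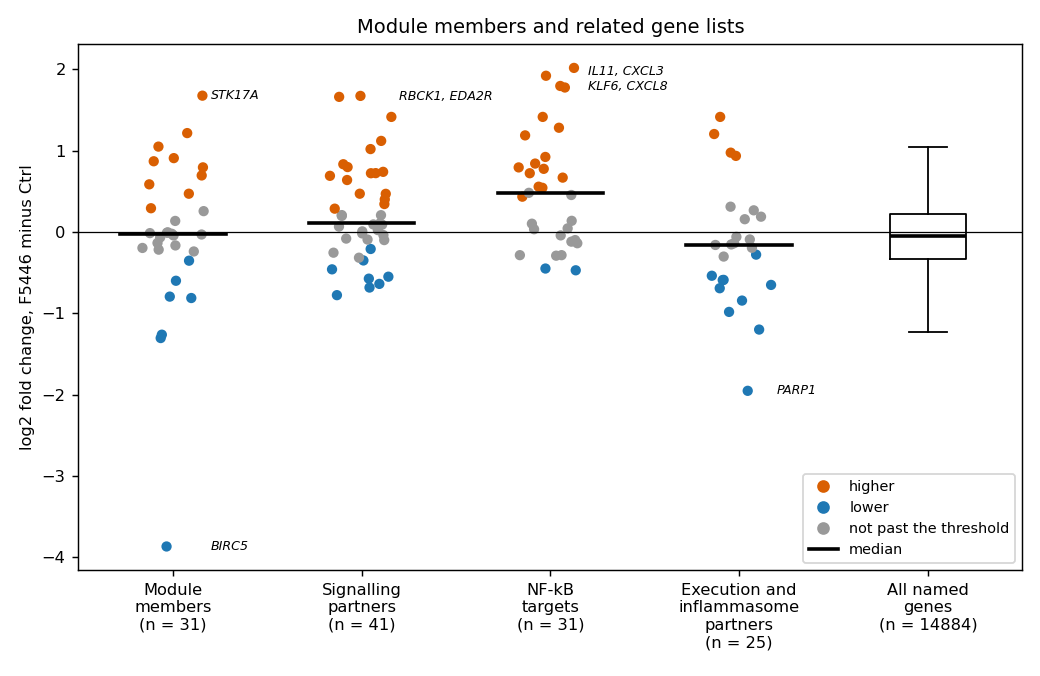
Log2 fold change, F5446 minus Ctrl, of the members and of the related lists, 1 point per gene (orange higher, blue lower, grey not past the threshold) with the median as a black bar; the box for all named genes spans the 25th to 75th percentiles and its whiskers the 5th to 95th. The median of the NF-kB targets is 0.48, and those of the members and of all named genes are -0.02 and -0.05.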

How the data were processed

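Total RNA of 4 SW620 samples was measured on single-colour arrays. The authors deposited a value for each of 53617 probe sets on each array, taken as log2 signal: the deposited table does not state its scale, and its values run from 0.71 to 13.8, above 11.09, the natural log of a 16-bit scanner's range, and below 16, its log2. The submitters' processing notes name Partek; how probes were summarised and arrays scaled was not given in the sources used here. Array medians were 4.40 to 4.44. The platform annotation names 16098 probe sets, each with 1 symbol. The probe set with the highest mean over the 4 arrays stood for its gene.

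Values were fitted as deposited with limma 3.58.1 in R 4.3.3 (lmFit and eBayes, prior variance trended on intensity, no covariate besides treatment, 4 arrays in the fit), with two-sided p-values adjusted by Benjamini-Hochberg over 14884 genes. Errors are standard errors of that fit, or SDs over 2 arrays. The number of arrays limits the precision. On simulated arrays of 14884 genes the fit recovered 54% of 100 genes changed by a log2 of 1 and 91% of 100 changed by a log2 of 2, with 2 false calls among 147. The simulation changed only 200 genes, whereas 40.9% of the named genes passed in the data. Adjusted p depends on that share, so these recovery rates need not hold for the data.

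The members and lists were chosen with earlier results of these data known. Array values are given for members that passed with separated arrays and at least 1.5-fold, and for the 2 brightest members of each role that did not pass. Some members outside that rule, FADD, RIPK3, BIRC2, XIAP and REL among them, also have theirs, and the rest are given more briefly. From each list the 3 widest rises and falls that passed are named. The alternatives tried were 2 scalings, a filter on dim genes, 2 variance models, averaging a gene's probe sets, all probe sets tested, a replicate block, a 2-fold threshold and each array left out. The same-numbered arrays' deviations from their group means correlated at r = 0.0436 across genes, so replicate numbers were not treated as pairs. No genome positions or sequences were used here.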

Additional observations from a re-analysis of the deposited data

How the results depend on the processing

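Of the 17 members that passed, 14 kept direction and call under all 12 alternatives other than a 2-fold threshold. The exceptions were TRAF3, XIAP and REL, and of the 14 that did not pass, DAPK3 passed under 1. Among the members, the genes named from the partner and target lists, SUV39H1, SUV39H2 and the BIRC5 partners, none that passed changed direction. With a change of at least 2-fold also required, 3 members were higher and 3 lower, 803 of all named genes were higher and 1090 lower, 5 signalling partners were higher and 0 lower, 7 NF-kB targets were higher and 0 lower, and 2 execution and inflammasome partners were higher and 2 lower. With every probe set tested 6274 were higher and 5483 lower, and 0 NF-kB targets fell. With each array centred on its median 7 execution and inflammasome partners rose and 0 NF-kB targets fell. Leaving out 1 array gave 8 to 9 members higher and 6 to 7 lower, 5 to 7 signalling partners lower, 0 to 1 NF-kB targets lower (1 without Ctrl replicate 1, 0 without any other array) and 6 to 8 execution and inflammasome partners lower. The replicate block gave 10 members higher and 7 lower and 2722 and 3342 of all named genes, so the block changed no member's call. The causes of these changes were not tested. DAPK1, DAPK2 and CASP12 lie under the median probe set signal and TNF, TRAF1 and RIPK3 only just above it, so a missing call there says little.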

Other observations

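BIRC5 was set beside the other subunits of the chromosomal passenger complex, chosen after its value was seen. AURKB, the kinase of the complex, had log2 signals of 7.60 and 7.50 in F5446 cells, against 10.71 and 10.72 in Ctrl cells (log2 fold change -3.16 ± 0.07, SE, adjusted p = 9.53e-09). CDCA8 (borealin) had 6.97 and 6.46 in F5446 cells and 9.16 and 9.01 in Ctrl cells, and INCENP, the scaffold, had 7.01 and 7.06 in F5446 cells and 9.07 and 9.09 in Ctrl cells. They fell 5.15-fold and 4.13-fold (adjusted p = 2.28e-06 and 1.22e-07). All 4 subunits were called lower at 2-fold or more, with both treated arrays below both untreated ones. Of all named genes 7.32% were called lower at that fold. Of the genes that share the inhibitor-of-apoptosis name with BIRC5, BIRC2, BIRC6 and XIAP rose and BIRC7 did not pass. The call for XIAP was lost under 4 alternatives. The cause of the fall in BIRC5 was not tested.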
